A study of Mus musculus with 24 samples.

Results

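The transcripts of 10 genes of the NF-κB system were followed in mouse CD4+ T cells: the subunit genes Rela, Rel, Relb, Nfkb1 and Nfkb2, and the genes of the inhibitors and feedback proteins Nfkbia, Nfkbib, Nfkbie, Bcl3 and Tnfaip3. Every probe whose gene symbol in the deposited array table is one of these names was taken, which gave 11 of the 25697 probes of the array. Nfkbie has 2 probes and each of the other genes has 1. Nfkbie is counted by its brighter probe, and the other probe is given beside it.

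The cells came from the spleens and lymph nodes of mice aged 4 to 6 weeks, and RNA of 24 samples was hybridized to Illumina MouseRef-8 arrays, with 3 arrays, replicates A, B and C, in each of 8 groups. WT mice and mice lacking BAF180 (the product of Pbrm1, a subunit of the PBAF chromatin remodeling complex) were compared in 4 cell states. Resting Naïve cells were purified by CD4 and CD62L to a stated purity of 95%. Stimulated Naïve cells were taken after 24 h on anti-CD3 (1 µg/ml) together with anti-CD28 (2 µg/ml). Resting Th2 cells had been grown from Naïve cells on the same antibodies with IL-4 at 10 ng/ml and anti-IFN-γ at 10 µg/ml, with IL-2 at 100 U/ml added after 24 h. Stimulated Th2 cells were resting Th2 cells exposed over 1.5 h to the phorbol ester PMA (50 ng/ml) plus the calcium ionophore ionomycin (500 ng/ml). BAF180 was removed by Cre recombinase driven from CD4 regulatory sequences, which deletes the floxed gene late in thymic development and only in cells that have expressed CD4. The labels give the strain as Balb/c and the methods give a mixed B6-129 background, and a legend of the study traces the arrays to 3 mouse pairs, each of a WT and a BAF180-deficient animal. Which letter belongs to which mouse is not given in the sources used here.

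NF-κB is a family of dimeric transcription factors. In resting T cells most dimers are held in the cytoplasm by IκB proteins, which the IκB kinase (IKK) complex marks for degradation after the T cell receptor, costimulatory receptors or phorbol esters activate protein kinase C. Freed dimers enter the nucleus and bind κB sites, among them sites in the genes of their own subunits and inhibitors, so that new IκBα and A20 close a feedback loop. The control of the pathway acts largely on protein degradation and location, which arrays of RNA do not measure. Rela, Rel and Relb encode subunits with a transactivation domain, and Nfkb1 and Nfkb2 encode the precursors p105 and p100, which act as inhibitors until they are processed to p50 and p52. Nfkbia, Nfkbib and Nfkbie encode IκBα, IκBβ and IκBε, Bcl3 encodes a nuclear IκB-like protein that works with p50 and p52, and Tnfaip3 encodes A20, a ubiquitin-editing enzyme that restrains IKK.

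Since members of this family are textbook targets of NF-κB itself, the bases just before the start of 5 of the genes are shown. They are the 130 bases upstream of a RefSeq start in the build GRCm38.p6, written 5′ to 3′ on the strand of the gene, with matches to the κB consensus on either strand in capitals. The matches of Nfkb2 and Rel include overlapping ones, which run together as a single block. The reference strain is C57BL/6J.
Nfkbia, chr12:55492648-55492777, minus strand: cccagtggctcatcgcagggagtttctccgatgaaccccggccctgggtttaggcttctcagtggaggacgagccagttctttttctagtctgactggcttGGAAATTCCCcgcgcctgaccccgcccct
Nfkb2, chr19:46304607-46304736, plus strand: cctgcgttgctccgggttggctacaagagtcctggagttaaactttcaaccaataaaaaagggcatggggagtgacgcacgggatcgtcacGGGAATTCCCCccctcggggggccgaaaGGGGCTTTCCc
Nfkbie, chr17:45555570-45555699, plus strand: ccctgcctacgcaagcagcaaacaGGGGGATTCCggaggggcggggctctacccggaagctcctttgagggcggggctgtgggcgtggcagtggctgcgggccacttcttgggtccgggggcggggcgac
Tnfaip3, chr10:19015411-19015540, minus strand: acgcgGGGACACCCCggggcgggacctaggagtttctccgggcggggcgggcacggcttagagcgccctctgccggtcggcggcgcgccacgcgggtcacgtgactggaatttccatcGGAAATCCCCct
Rel, chr11:23770970-23771099, minus strand: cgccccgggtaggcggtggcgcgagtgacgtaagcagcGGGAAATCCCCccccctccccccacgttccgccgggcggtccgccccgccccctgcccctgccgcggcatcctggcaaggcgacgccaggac

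The consensus of 10 bases was searched on both strands of windows of 300 bases, from 250 before to 50 after each start. Of all 32851 such windows, 4.51% held a match, as did 8 of the 11 windows of the genes followed here. By gene, 5.14% of all genes with a window had a match. Windows of 8 of the 10 genes were at hand, and those of 6 genes held a match: the 5 above and Bcl3, whose match lies 3 bases after the start. Nfkb2 has 3 starts and all 3 of its windows held a match, while of the 2 starts of Tnfaip3 the match was in the window of the first. The windows of Nfkb2 starts 2 and 3 overlap. The only match of start 3 is the same bases as a match of start 2, so this site is counted in both windows. The windows of Rela and Nfkbib held none of these letters. A match is a run of letters in the reference and was not tested for binding in these cells.

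All 11 probes passed the filter on detection (detected on 1 or more arrays, with 0.02 as the highest detection p accepted), as did 14246 probes in all. Rel was detected on no array of resting Th2 cells in either genotype, and the other Nfkbie probe on none of resting Th2 cells and none of BAF180-deficient resting Naïve cells. Levels below are log2 values after background correction and quantile normalization of all 24 arrays, and levels of different probes are not compared. The arrays differed in brightness by state. The 99th percentile of the deposited intensity lay between 717 and 1382 on the 6 arrays of resting Naïve cells and between 1305 and 4079 on the other 18 arrays, so normalization raised the resting Naïve arrays relative to the others. The labels were checked with Pbrm1, which was lower on every BAF180-deficient array than on every WT array of the same state. The mean differences were 1.01 to 1.86 on the log2 scale and met the criteria for genotype comparisons given below in all 4 states. Its probe still gave a signal, at 6.36 to 7.88, on the BAF180-deficient arrays. T cell genes (Cd3d, Cd3e, Cd3g and Cd4) were detected on every array.

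Resting Naïve samples differed from the others in genes of other cells and in Cd69. The summed level of 6 myeloid genes was between 1900 and 5074 on the 6 resting Naïve arrays and between 122 and 251 on the 18 others. Lyz2, the lysozyme of macrophages and neutrophils, Cd14 and Tyrobp were detected on all 6 resting Naïve arrays and on none of the 18 others. The rest of the list was not confined in this way. Adgre1, at 7.77 to 8.84 on resting Naïve arrays, was also detected on most Th2 arrays, at up to 7.23. Csf1r was detected on most of the 18 others, at up to 5.08, and Fcer1g on some of them, at up to 5.72. The summed level of 6 B cell genes was between 466 and 1185 on resting Naïve arrays and between 118 and 569 elsewhere. A pair of NK cell genes summed to 91 to 301 on resting Naïve arrays and to at most 71 elsewhere, and a pair of regulatory T cell genes (Foxp3 and Ikzf2) to 512 to 1049 and to at most 479. In resting Naïve cells the regulatory pair summed to 732 to 1049 without BAF180 and to 512 to 726 in WT cells. The CD8 T cell gene Cd8b1 was detected on every array. Its genotype difference ran from -0.95 in resting Th2 to -0.15 in resting Naïve cells and was called in no state. The sum of the 4 T cell genes was lowest on stimulated Naïve arrays, at 2442 to 5058 against 5478 to 10258 on the 18 others. Cd69, a surface protein that T cells show within hours of activation, was at 11.29 to 12.10 in resting Naïve cells, 9.39 to 10.67 in both stimulated states and 6.69 to 8.05 in resting Th2 cells. Il2ra and Egr2, also genes of activation, did not share this order. Il2ra was lowest in resting Naïve cells, at 5.09 to 5.66 against 7.86 to 8.91 elsewhere. Egr2 in resting Naïve cells, at 5.84 to 7.85, lay below both stimulated states (8.75 to 10.79) and above resting Th2 cells (4.80 to 5.58). Replicate C of resting Naïve cells had the lowest sum of the activation list (Cd69, Il2ra and Egr2) and the highest sum of the B cell list in both genotypes. The part of these genes, and of array brightness, in the differences below, between states or genotypes, was not tested. In these bulk samples, fewer cells of a type and less RNA per cell cannot be told apart.

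**Figure D1:**
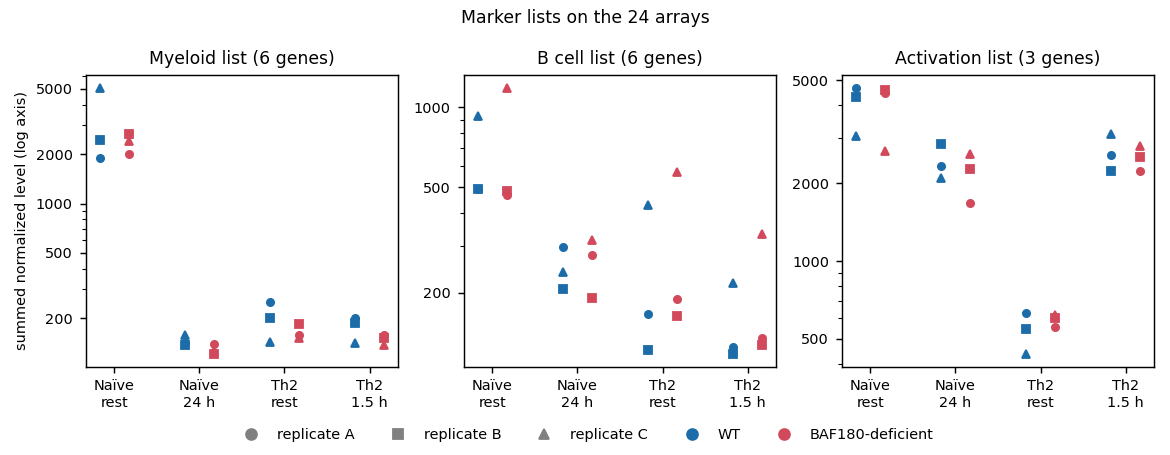
Summed normalized level (log axis) of the myeloid, B cell and activation lists on each of the 24 arrays, by cell state (horizontal axis), genotype (colour) and replicate (symbol). The 6 resting Naïve arrays lie at 1900 to 5074 for the myeloid list, above all 18 others, which lie at 122 to 251.

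**Figure D2:**
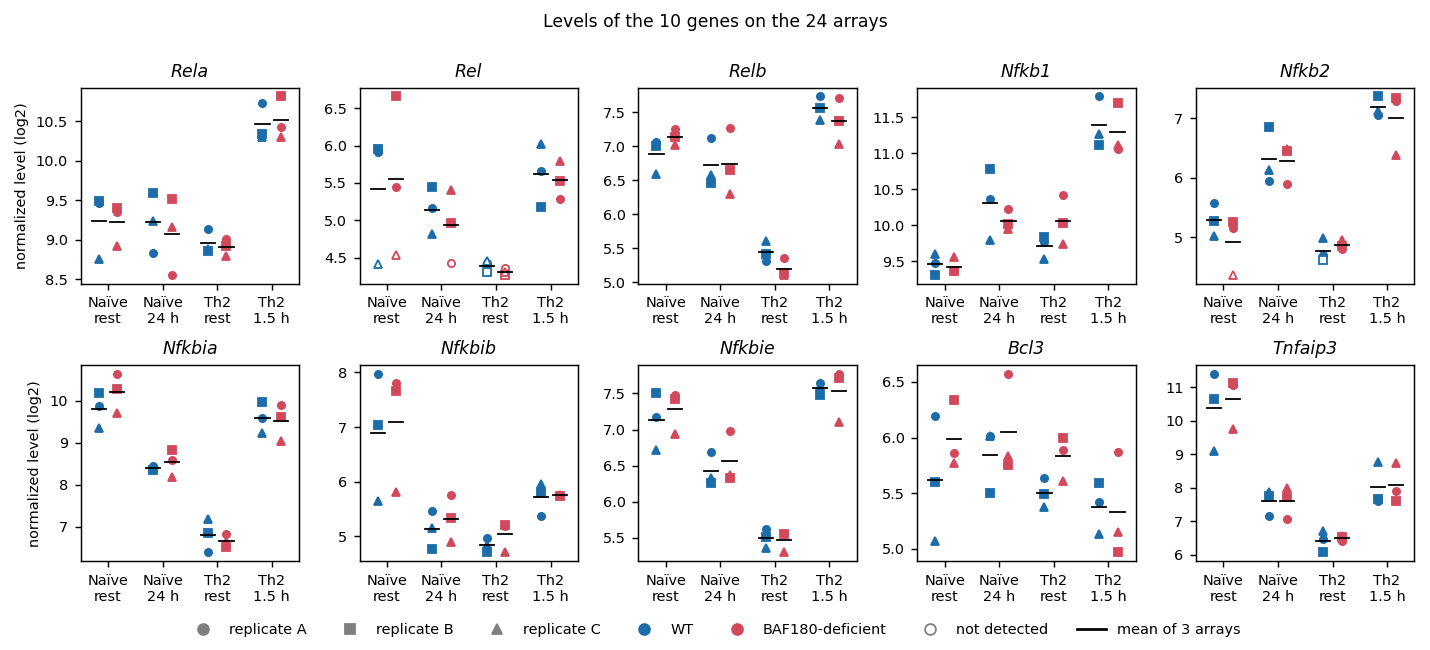
Normalized level (log2, vertical axis) of each of the 10 genes on every array, by cell state (horizontal axis), genotype (colour) and replicate (symbol), with a line at the mean of 3 arrays and open symbols where the probe was not detected. Stimulated Th2 arrays lie above resting Th2 arrays for 9 genes in WT cells, Bcl3 being the exception, and the arrays of both genotypes overlap in each state.

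Stimulation of Th2 cells for 1.5 h raised the RNA of 8 of the 10 genes in WT cells and lowered none (limma, adjusted p below 0.05 over all probes), where 27.3% of all probes passed this test, 13% as higher and 14.3% as lower. The median difference of the 10 genes was 1.64 on the log2 scale, and that of all probes was -0.00. Inhibitor and subunit genes rose together: Nfkbia by 6.84-fold, Nfkb2 by 5.35-fold, Relb by 4.33-fold, Nfkbie by 4.23-fold, Nfkb1 by 3.21-fold, Tnfaip3 by 3.01-fold, Rela by 2.82-fold and Rel by at least 2.03-fold. Nfkbib and Bcl3 did not pass. Every stimulated array lay above every resting array for 9 of the 10 genes, as it did for 19.5% of all probes.

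Of the transactivating subunits, Rela was at 9.14, 8.86 and 8.88 on replicates A, B and C of resting WT Th2 cells and at 10.73, 10.34 and 10.30 after stimulation. The groups did not overlap, and the log2 difference was 1.50 ± 0.24 (SE, n = 3 arrays a group, limma, adjusted p = 6.57e-05). Relb, the partner of p52 in the noncanonical branch, stood at 5.31, 5.41 and 5.61 at rest and at 7.73, 7.56 and 7.39 when stimulated. Its difference of 2.12 ± 0.22 was larger than the spread of either group (adjusted p = 3.41e-07 in limma). Rel, which encodes the lymphoid subunit c-Rel, was detected on none of the 3 resting arrays, where its values were 4.43, 4.30 and 4.45, and on all 3 stimulated arrays, at 5.66, 5.18 and 6.02. Against the lowest signal that was detected on each resting array, Rel was at least 2.03-fold higher after stimulation. The bound itself was not tested. The limma difference, which uses the normalized values of the undetected arrays as they are, passed (adjusted p = 0.0294). Leaving out any of 5 of the 6 arrays of this comparison took Rel past 0.05, all but replicate B of the stimulated cells, with adjusted p values up to 0.120 without replicate C of the stimulated cells.

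Of the precursor genes, Nfkb1 was at 9.76, 9.83 and 9.53 in resting WT Th2 cells and at 11.79, 11.11 and 11.27 in stimulated ones, a difference of 1.68 ± 0.23 (limma, adjusted p = 9.63e-06). Nfkb2 was at 4.70, 4.61 and 4.99 before and 7.06, 7.37 and 7.13 after stimulation, and differed by 2.42 ± 0.27 (limma, adjusted p = 8.22e-07). Every stimulated array of both genes lay above every resting array.

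Of the inhibitor genes, Nfkbia had the largest difference of the 10 genes. Its levels were 6.40, 6.86 and 7.18 at rest and 9.58, 9.97 and 9.22 after stimulation, a difference of 2.77 ± 0.27 (limma, adjusted p = 1.33e-07). Nfkbie, by the brighter probe, was at 5.62, 5.51 and 5.36 at rest and at 7.64, 7.48 and 7.61 after stimulation, differing by 2.08 ± 0.22 (limma, adjusted p = 3.31e-07). The other Nfkbie probe was not detected at rest and was at least 2.14-fold higher after stimulation, so both probes rose. Its limma difference of the normalized values passed (adjusted p = 6.01e-06). Nfkbib was at 4.97, 4.71 and 4.85 at rest and 5.37, 5.82 and 5.95 after stimulation. All 3 stimulated Nfkbib arrays lay above the resting ones, but its difference of 0.87, with a 95% confidence interval from -0.08 to 1.82, did not pass (limma, adjusted p = 0.184). When the spread was estimated from these 6 arrays alone, Nfkbib passed (adjusted p = 0.0107). The same change ended the calls of Nfkbie in the WT Naïve response (adjusted p = 0.0506) and of Rel between resting BAF180-deficient states (adjusted p = 0.0905).

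Tnfaip3 was at 6.48, 6.08 and 6.71 in resting WT Th2 cells and at 7.61, 7.66 and 8.78 in stimulated ones. The difference was 1.59 ± 0.47 (limma, adjusted p = 0.0142), and replicate C of the stimulated cells lay more than 1 log2 unit above the others. Without that array the difference was 1.21 (adjusted p = 0.0912), and without resting replicate B it was 1.42 (adjusted p = 0.0611). Scaled by Z-scores, as in the methods of the study, in place of quantiles, Tnfaip3 did not pass either (adjusted p = 0.108). Bcl3 was at 5.64, 5.49 and 5.38 at rest and 5.42, 5.59 and 5.13 after stimulation, so its groups overlapped and its difference of -0.12 (95% confidence interval -0.69 to 0.45) did not pass.

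In BAF180-deficient Th2 cells 8 genes rose and none fell, against 25.8% of all probes called, 12% as higher and 13.8% as lower. The log2 differences were 2.85 for Nfkbia, 2.17 for Relb, 2.14 for Nfkb2, 2.06 for Nfkbie, 1.60 for Rela, 1.58 for Tnfaip3 and 1.23 for Nfkb1, and they were 0.72 for Nfkbib and -0.50 for Bcl3, which did not pass. These arrays are separate from the WT arrays. The genes that rose were the 8 that rose in WT cells. The 99th percentile of intensity was 2007 to 3187 on these resting arrays and 1421 to 2963 on the stimulated ones. By deposited intensity Nfkb1 overlapped, at 1407.1, 1706.7 and 1461.8 at rest and 1602.8, 2649.4 and 3400.7 after stimulation. Tnfaip3 overlapped too (110.5, 164.4 and 187.5, then 186.3, 176.6 and 652.1), and the other genes that rose did not. Rel was again detected on no resting array and was at least 1.95-fold higher after stimulation. Here, too, Rel was lost (adjusted p = 0.0677 to 0.100) when any of 5 arrays was left out, all but replicate A of the stimulated cells, and Tnfaip3 when replicate C of the stimulated cells was left out (adjusted p = 0.0843).

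**Figure D3:**
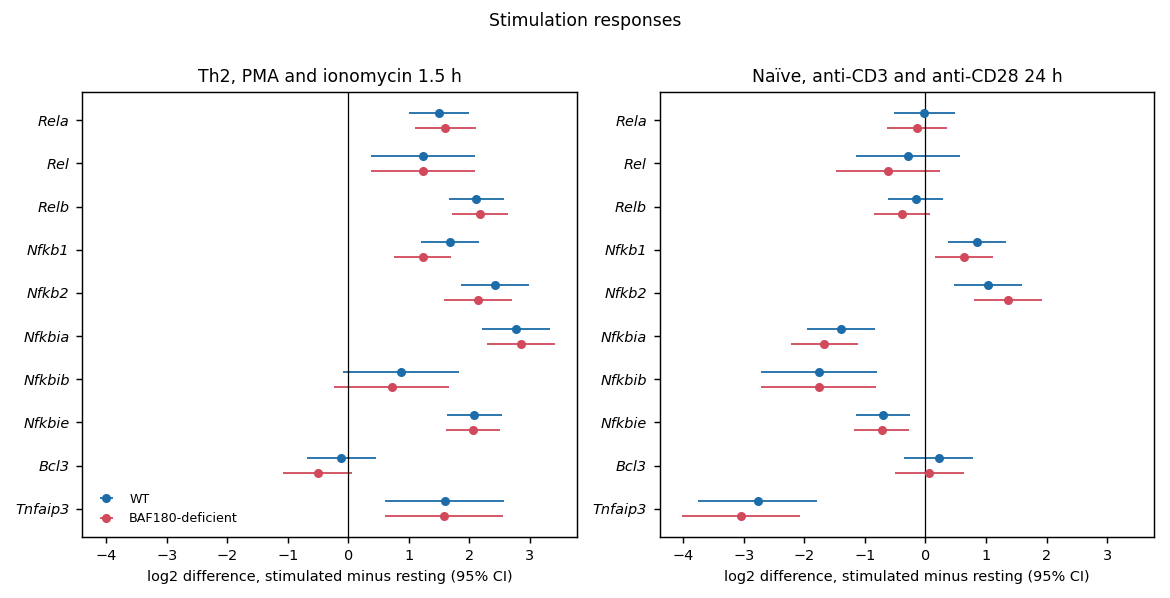
Log2 difference between stimulated and resting cells (horizontal axis, bars are 95% confidence intervals from the model) for each gene in Th2 cells (left) and Naïve cells (right), with WT and BAF180-deficient cells as separate points. In Th2 cells 8 genes lie above 0 with intervals clear of it, and in Naïve cells Nfkb1 and Nfkb2 lie above 0 while Nfkbia, Nfkbib, Nfkbie and Tnfaip3 lie below.

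After 24 h of anti-CD3 and anti-CD28 the Naïve cells gave a different picture. In WT cells both precursor genes rose and 4 inhibitor genes fell (2 higher and 4 lower of 10), where 43.6% of all probes were called, 23.6% as higher and 20% as lower. Tnfaip3 fell by 2.77 on the log2 scale, Nfkbib by 1.76, Nfkbia by 1.40 and Nfkbie by 0.70. Rela, Rel, Relb and Bcl3 did not pass. The times and stimuli differ from those of the Th2 cells, so the contrasts are set side by side as measurements of different treatments.

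Nfkb1 was at 9.47, 9.31 and 9.60 on replicates A, B and C of resting WT Naïve cells and at 10.36, 10.78 and 9.79 after stimulation, a difference of 0.85 ± 0.23 (limma, adjusted p = 0.00436). Nfkb2 went from 5.57, 5.27 and 5.02 to 5.95, 6.85 and 6.14, a difference of 1.03 ± 0.27 (limma, adjusted p = 0.00389). Stimulated and resting arrays did not overlap for either gene. Rela was at 9.46, 9.49 and 8.76 at rest and 8.84, 9.59 and 9.24 after stimulation, Relb at 7.06, 7.00 and 6.59 and then 7.12, 6.46 and 6.57. Rel was at 5.91 and 5.95 on resting replicates A and B and not detected on C, at 4.41, and was at 5.16, 5.44 and 4.82 after stimulation. The normalized levels of these 3 genes overlapped, with differences of -0.02 for Rela (95% confidence interval -0.52 to 0.48), -0.17 for Relb (-0.63 to 0.29) and -0.28 for Rel (-1.14 to 0.57). The deposited intensities of Rela were 277.9, 354.9 and 325.9 at rest and 537.3, 641 and 800.1 after stimulation. Those of Relb were 82.5, 89.9 and 97.8 and then 169.2, 98.6 and 142.8. Before normalization both genes were thus higher after stimulation without overlap, while Rel overlapped. The resting arrays were the dimmer ones, as given above.

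Nfkbia was at 9.88, 10.17 and 9.35 in resting WT Naïve cells and at 8.44, 8.36 and 8.40 after stimulation, a difference of -1.40 ± 0.27 (limma, adjusted p = 0.000246). The deposited intensities of this probe, before any normalization, were 350.9, 534.6 and 460.6 at rest and 406.8, 283.3 and 447.7 after stimulation, and these overlapped. Tnfaip3 fell from 11.39, 10.66 and 9.09 to 7.17, 7.77 and 7.88, a difference of -2.77 ± 0.47 (limma, adjusted p = 6.26e-05), and its deposited intensities were 994.7, 734.7 and 395.1 at rest and 174.5, 198.8 and 320.4 after stimulation, which did not overlap. Nfkbib was at 7.97, 7.04 and 5.65 and then at 5.46, 4.77 and 5.15, a difference of -1.76 ± 0.46 (limma, adjusted p = 0.00353). By normalized level, replicate C of the resting cells was the lowest of the 3 in both genotypes for every gene but Nfkb1, as it was for the activation list. Without replicate C of resting Naïve cells in both genotypes, an alternative chosen after the values were seen, Tnfaip3 differed by -3.42, Nfkbib by -2.38 and Rel by -0.79, and Rel then passed (adjusted p = 0.0455).

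Nfkbie, by the brighter probe, was at 7.17, 7.50 and 6.72 at rest and at 6.69, 6.26 and 6.33 after stimulation, a difference of -0.70 ± 0.22 (limma, adjusted p = 0.0118). The other Nfkbie probe was at 4.64, 4.47 and 4.68 and then at 4.65, 4.94 and 4.67, a difference of 0.16 ± 0.18 that did not pass, so the probes disagreed in direction in the Naïve cells. The deposited intensities of the brighter probe were 86.2, 113 and 104.3 at rest and 127.7, 90.0 and 124.1 after stimulation. Before normalization they thus overlapped and were no lower on average after stimulation. Without replicate B of either state the brighter probe did not pass (adjusted p = 0.0815 without the resting and 0.0521 without the stimulated array), nor did the mean of both probes (-0.27, adjusted p = 0.192). Bcl3 ranged from 5.07 to 6.19 at rest and from 5.50 to 6.01 after stimulation, and did not pass.

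The BAF180-deficient Naïve cells also had 2 genes higher and 4 lower, against 41.6% of all probes called, 22.3% as higher and 19.3% as lower. The differences were 1.36 for Nfkb2, 0.64 for Nfkb1, -3.04 for Tnfaip3, -1.76 for Nfkbib, -1.67 for Nfkbia and -0.72 for Nfkbie. Before normalization Nfkbie, by the brighter probe, was at 111.5, 109.6 and 117 at rest and 132, 120 and 129.2 after stimulation. Every stimulated array was thus the higher one by deposited intensity. Nfkbia (756.6, 565.4 and 609.9, then 374.4, 590.6 and 415.4) and Nfkbib (131, 121.6 and 68.6, then 69.9, 69 and 55) overlapped. Tnfaip3 did not overlap. Nfkb1 was lost when any of 4 of these 6 arrays was left out (adjusted p 0.0556 to 0.0893), namely replicates A and B of either state. The other Nfkbie probe was detected on no resting array and on all 3 stimulated arrays, where it was at least 1.07-fold higher. Its limma difference of the normalized values did not pass (adjusted p = 0.0547), and here too the probes disagreed in direction. The normalized levels of the brighter probe overlapped, and it did not pass without resting replicate A (adjusted p = 0.05, at the threshold) or stimulated replicates B (0.0565) or C (0.0519). Without resting replicate C, Rel passed as lower (adjusted p = 0.0296), and without stimulated replicate A, Relb did (-0.66, adjusted p = 0.0174).

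Resting Th2 cells had less RNA of most of the inhibitor genes than resting Naïve cells. In WT cells 5 genes were lower and none higher, where 34.4% of all probes were called, 16% as lower and 18.4% as higher, and the median of the 10 genes was -1.24 against 0.03 for all probes. Tnfaip3 was 15.5-fold lower in resting Th2 cells (-3.96 ± 0.47, adjusted p = 1.48e-06), Nfkbia 7.89-fold (-2.98 ± 0.27, adjusted p = 3.63e-08), Nfkbib 4.13-fold (-2.05 ± 0.46, adjusted p = 0.00154) and Nfkbie 3.10-fold (-1.63 ± 0.22, adjusted p = 6.26e-06). Relb was the only subunit gene that passed, at 2.71-fold lower (-1.44 ± 0.22, adjusted p = 3.47e-05). The Th2 arrays of these 5 genes all lay below the Naïve arrays, as they did for 18.8% of all probes. By deposited intensity this held for Tnfaip3, Nfkbia, Nfkbib and Relb. Nfkbie overlapped, at 86.2, 113 and 104.3 in Naïve and 90.4, 62.2 and 64.2 in Th2 cells. Nfkb1, which did not pass, was by deposited intensity higher on every Th2 array (1211.9, 638.9 and 664.4 against 279, 313.2 and 548). The other Nfkbie probe was not detected in resting Th2 cells and on 1 of 3 resting Naïve arrays, and gave no bound. This contrast uses the resting arrays of both stimulation contrasts.

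In BAF180-deficient cells 6 genes were lower and 1 was higher in resting Th2 than in resting Naïve cells, against 34.7% of all probes called, 15.9% as lower and 18.8% as higher. Tnfaip3 was lower by 17.6-fold, Nfkbia by 11.6-fold, Nfkbib by 4.15-fold, Relb by 3.82-fold and Nfkbie by 3.51-fold. Rel, detected on none of the 3 Th2 arrays and 2 of the 3 Naïve arrays, was at least 1.96-fold lower. Its limma difference of the normalized values passed (adjusted p = 0.0240). In WT cells that difference missed the threshold (adjusted p = 0.0575) unless Naïve replicate C was left out (adjusted p = 0.00493). Nfkb1 was higher by 0.64 (limma, adjusted p = 0.0332). By deposited intensity Nfkbib and Rel overlapped between these states, and the other genes that passed did not. Rel did not pass without Naïve replicate B (adjusted p = 0.194) or Th2 replicates B or C, and Nfkb1 did not pass without Naïve replicates A or B or Th2 replicates A or B.

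The order of the 4 states by their WT means differed between genes. Nfkb1, Nfkb2, Rela, Relb, Rel and Nfkbie were highest in stimulated Th2 cells. For Rel and Nfkbie the arrays of stimulated Th2 and resting Naïve cells overlapped. Nfkbia, Nfkbib and Tnfaip3 were highest in resting Naïve cells, followed by stimulated Th2, stimulated Naïve and resting Th2 cells. Tnfaip3 in resting Naïve cells was separate from stimulated Th2 cells, whose arrays overlapped with those of stimulated Naïve cells. Nfkbia overlapped between resting Naïve and stimulated Th2 cells, and neighbours further down were separate. All neighbours overlapped for Nfkbib. Resting Th2 cells had the lowest WT mean of 8 genes, all but Nfkb1, which was lowest in resting Naïve cells, and Bcl3, which was lowest in stimulated Th2 cells with every pair of neighbours overlapping.

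The response of WT Th2 cells minus that of WT Naïve cells was tested in the same model. It was positive for 7 of the 10 genes and negative for none among those that passed, where 25% of all probes passed, 11.1% with a positive and 14% with a negative value. The difference of the responses was 4.37 ± 0.66 for Tnfaip3, 4.17 ± 0.38 for Nfkbia, 2.78 ± 0.31 for Nfkbie, 2.63 ± 0.65 for Nfkbib, 2.28 ± 0.31 for Relb, 1.51 ± 0.34 for Rela and 1.39 ± 0.38 for Nfkb2 (log2, SE). Rel (adjusted p = 0.0625), which was not detected in resting Th2 cells, Nfkb1 (0.83, adjusted p = 0.0661) and Bcl3 (-0.34, adjusted p = 0.581) did not pass. Cell type, stimulus, time and the makeup of the resting Naïve samples change together in this difference and cannot be told apart. Without replicate C of resting Naïve cells in both genotypes Rel passed too (adjusted p = 0.00118). Leaving out single arrays, Rel passed without WT replicate C of resting Naïve (adjusted p = 0.00719) or B of stimulated Th2 cells (0.0485), and Nfkb1 passed without replicate B of stimulated Naïve (0.0177) or stimulated Th2 cells (0.0449).

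**Figure D4:**
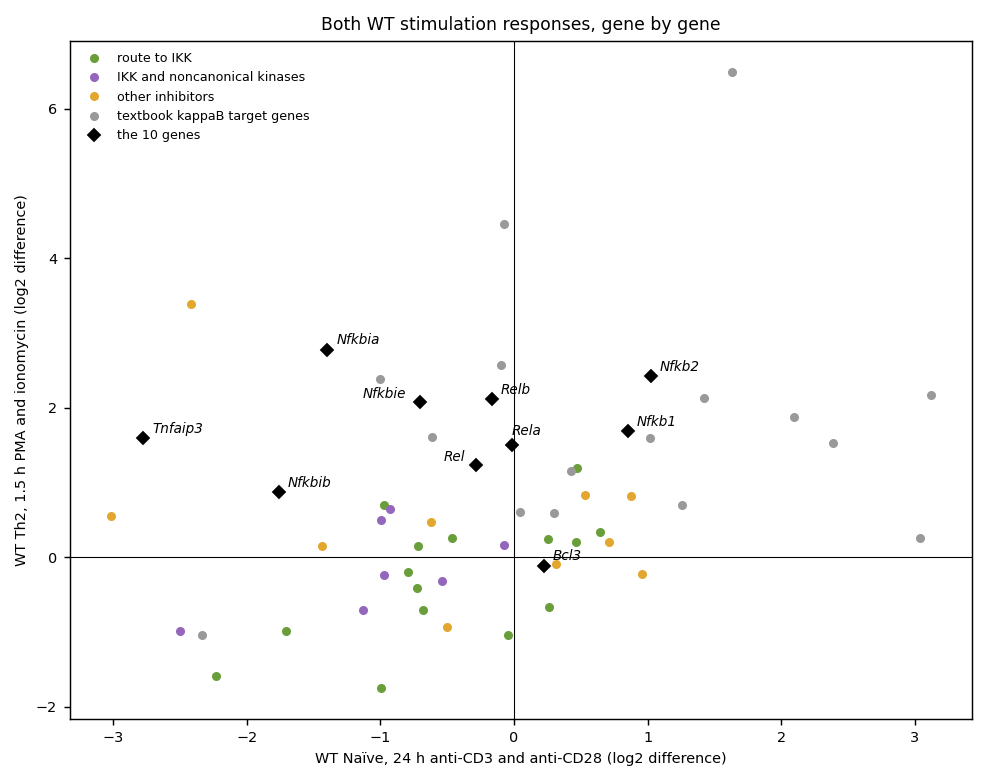
Log2 difference of each gene in WT Naïve cells (horizontal axis) and in WT Th2 cells (vertical axis), stimulated minus resting, for the 10 genes (named diamonds) and 4 lists of other genes of the pathway (coloured points). Tnfaip3, Nfkbib, Nfkbia and Nfkbie lie at upper left, higher in stimulated Th2 and lower in stimulated Naïve cells, and Nfkb1 and Nfkb2 at upper right.

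Other genes of the pathway were counted in 4 lists. Of 15 genes on the route from the receptors to IKK, 1 rose and 6 fell in WT Th2 cells, where 13% of all probes were called higher and 14.3% lower. Bcl10, an adaptor between protein kinase C and IKK, rose by 0.70. Prkcq, the protein kinase C of T cells, was lower by 1.75, and the kinase and ubiquitin ligase genes Ripk1 and Birc2 by 1.04 and 0.98. In WT Naïve cells 1 of the 15 rose, the kinase gene Map3k7 (0.64), and 9 fell (all probes 23.6% higher and 20% lower), among them Birc2 by 1.71, Prkcq by 0.99 and Bcl10 by 0.97. The median over the list was -0.20 in Th2 and -0.68 in Naïve cells. Birc2 and Prkcq thus fell under both stimuli, and Bcl10 rose under the Th2 stimulus and fell under the Naïve one.

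Of 7 genes of IKK and the noncanonical kinases, 1 rose and 2 fell in WT Th2 cells and 6 fell in WT Naïve cells, against 27.3% and 43.6% of all probes called in either direction. The Th2 count is near that share. Traf3, a brake on the noncanonical branch, was higher by 0.64 in stimulated Th2 and lower by 0.93 in stimulated Naïve cells. Ikbke, an IKK-related kinase, was lower by 0.99 and 2.50, and Ikbkg, the regulatory subunit NEMO, by 0.70 and 1.13. Map3k14, the kinase NIK, and Ikbkb, the catalytic subunit IKKβ, fell in Naïve cells by 1.00 and 0.97.

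Of 12 other inhibitor genes, 10 were measured. In WT Th2 cells 3 rose and 1 fell, and in WT Naïve cells 3 rose and 3 fell, counts not far from the 27.3% and 43.6% of all probes called. Nfkbid, which encodes another nuclear IκB protein, rose by 3.39 ± 0.35 in Th2 cells and fell by 2.42 ± 0.35 in Naïve cells, and its mean was 11.38 in resting Naïve, 8.96 in stimulated Naïve, 7.45 in resting Th2 and 10.84 in stimulated Th2 cells. Nfkbiz, a nuclear IκB protein too, fell by 3.02 in Naïve cells. Nkrf and Tnip2 rose in Th2 cells by 0.84 and 0.81, and the deubiquitinase gene Cyld fell by 0.93. In Naïve cells Commd1, Tnip2 and Otud7b rose by 0.96, 0.88 and 0.71, and Tnip1, which encodes a partner of A20, fell by 1.44.

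Of 19 textbook κB target genes, 16 were measured. In WT Th2 cells 13 rose and 1 fell, with a list median of 1.60, and in WT Naïve cells 8 rose and 1 fell, with a median of 0.72. Of all probes, 13% rose in the Th2 and 23.6% in the Naïve contrast. The cytokine genes Csf2 and Tnf rose by 6.50 ± 0.22 and 4.46 ± 0.32 in Th2 cells, and Gadd45b and Cd83 by 2.58 and 2.39. In Naïve cells Irf4, a transcription factor of activated lymphocytes, rose by 3.12, Il2ra, the IL-2 receptor α chain, by 3.04, Lta by 2.38 and the survival gene Bcl2l1 by 2.10. Ltb was lower under both stimuli, by 1.04 in Th2 and 2.33 in Naïve cells. In both WT stimulation contrasts and under both other scalings tried, no called gene of the 4 lists changed direction.

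None of the 10 genes passed the test between genotypes in any of the 4 states. The 4 criteria for such a call follow the study's methods but were computed here from the normalized log2 values and limma, where the methods use Z-scores. They are an unadjusted p below 0.05, a false discovery rate below 0.3, a positive mean signal and a Z-ratio (the difference divided by its SD across all probes) past 1.5 in size. In each state 0 of 10 genes met them, against 0.0842% of all probes in Th2 cells at rest and 0.0913% after stimulation, and against 0.681% in Naïve cells at rest and 0.112% after stimulation. With arrays scaled to Z-scores, too, 0 of 10 met them in each state. None of the 10 reached an unadjusted p of 0.05 in limma, as 3.43% of all probes did in Th2 cells at rest, 2.79% in Th2 cells after stimulation, 6.83% in Naïve cells at rest and 2.25% in Naïve cells after stimulation. WT and BAF180-deficient arrays overlapped for each gene in each state, while they were separate for 10.1% and 7.31% of all probes in Th2 cells at rest and after stimulation, and for 7.99% and 6.46% in Naïve cells. Of the 4 pathway lists, too, no gene was called in any state. This differs from the study for Th2 cells. There Il2ra is named among genes that BAF180 appeared to repress, and Ikbke among those it appeared to activate. In resting Th2 cells Il2ra was at 8.55, 8.71 and 8.91 without BAF180 and at 8.50, 7.86 and 8.27 in WT cells. It was thus higher there without overlap but was not called, and after stimulation its arrays overlapped. The study's criteria were computed from Z-scores, so the calls are not made on the same values. The study also counted far more changed genes over its conditions than met the criteria here.

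Rel was not detected in resting Th2 cells of either genotype, so no difference was measured there. The largest of the other 39 differences was 0.41 for Nfkbia in resting Naïve cells, where BAF180-deficient arrays were at 10.63, 10.27 and 9.70 and WT arrays at 9.88, 10.17 and 9.35. Its 95% confidence interval reached from -0.15 to 0.97 (limma, adjusted p = 0.899). Next came Bcl3 in the same state (0.37, interval -0.20 to 0.94), Nfkb2 in the same state (-0.36, interval -0.93 to 0.20) and Nfkb1 in resting Th2 cells (0.36, interval -0.11 to 0.84). Nfkb1 was at 10.42, 10.03 and 9.74 in BAF180-deficient and at 9.76, 9.83 and 9.53 in WT resting Th2 cells. Intervals were wide for some genes, as for Tnfaip3 in resting Naïve cells, where it ran from -0.72 to 1.24.

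Averaged over the 4 states, an estimate added after the values were seen, the genotype difference was between -0.11 for Nfkb2 (95% confidence interval -0.40 to 0.17) and 0.21 for Bcl3 (-0.07 to 0.50, unadjusted p = 0.133 in limma). With the replicate letter as a block, the interval of Bcl3 was -0.03 to 0.46 (unadjusted p = 0.0794 in limma). The other intervals were -0.24 to 0.23 for Nfkb1, -0.29 to 0.21 for Rela, -0.27 to 0.19 for Relb, -0.20 to 0.36 for Nfkbia and -0.17 to 0.28 for Nfkbie, and they were wider for Nfkbib (-0.32 to 0.63) and Tnfaip3 (-0.39 to 0.59). The average for Rel includes resting Th2 cells, where it was not detected, and is not given. None of the 10 passed an adjusted p of 0.05, against 0.309% of all probes.

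**Figure D5:**
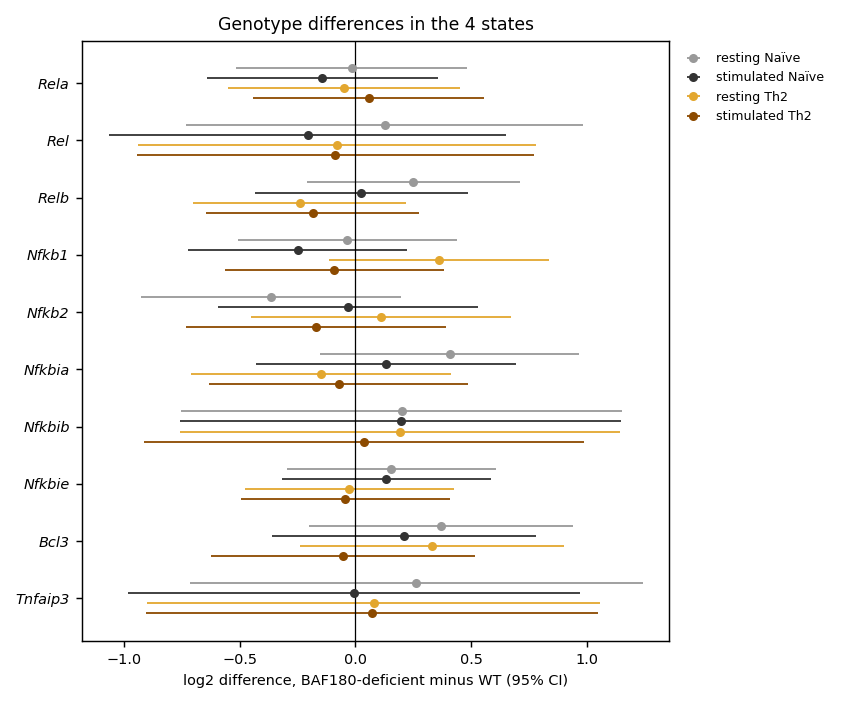
Log2 difference between BAF180-deficient and WT cells (horizontal axis, bars are 95% confidence intervals from the model) for each of the 10 genes in the 4 cell states (colours). Rel was not detected in resting Th2 cells, so its point there is no measured difference. Every interval includes 0, and the points lie between -0.36 and 0.41.

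Whether the stimulation response itself depended on the genotype was tested as an interaction. In Th2 cells 0 of 10 genes passed, against 0% of all probes, with differences of the response between -0.45 for Nfkb1 (95% confidence interval -1.12 to 0.22) and 0.11 for Rela. In Naïve cells 0 of 10 passed, against 0.00702% of all probes, with differences between -0.33 for Rel and 0.33 for Nfkb2. At an unadjusted p below 0.05 there was again none in either cell type, against 1.8% of all probes in Th2 and 2.31% in Naïve cells.

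Across the 24 arrays, whose groups set most of the variation, pairs of the 10 genes ran from a Pearson correlation of 0.957 between Relb and Nfkbie to -0.457 between Rela and Bcl3. Nfkbia correlated at 0.930 with Nfkbie and at 0.909 with Relb, and Nfkbib at 0.901 with Tnfaip3. Of all other measured genes, those most like Nfkbia were Zfp36l1 (0.940), Nfkbid (0.936) and the demethylase gene Kdm6b (0.924), and those most like Nfkbie were Tmem65 (0.956), Kdm6b (0.955) and Fasl (0.951). Relb was most like Actr1b (0.944), Cd274 (0.941), which encodes PD-L1, and Bcl2a1c (0.921). Tnfaip3 was most like Ppp1r15a (0.957), Per1 (0.944) and Ipcef1 (0.940), and Nfkbib like Usp2 (0.936), Dusp10 (0.931) and Dyrk2 (0.927). For the subunits, the nearest genes were Mmp13 (0.933), Btg3 (0.931) and Tnfsf14 (0.929) for Rela, Nup98 (0.910), Sfpq (0.873) and Il1a (0.872) for Rel, Fam83g (0.939), Alg9 (0.933) and Got1 (0.925) for Nfkb1, and Stat5a (0.950), Rrp9 (0.943) and Smyd5 (0.938) for Nfkb2. Bcl3 had no gene above 0.794, the value of Slc16a6, followed by Trappc3 (0.779) and 3110009E18Rik (0.777). These are descriptions over arrays that share groups and are given with no test.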

How the data were processed

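Total RNA of 24 samples was labelled as biotin cRNA and hybridized to Illumina MouseRef-8 arrays. The authors deposited bead intensity per probe from GenomeStudio (version 1.6.0 per the labels), not normalized and, by their lowest values, not background-subtracted, and for each probe a detection p-value. The Z-score values of the study were not used here. Genes were named through Entrez ID (16938 probes), accession (7418), symbol (467) or synonym (553), and 321 probes kept the symbol of the table.

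Intensities were corrected and quantile normalized with neqc in limma 3.58.1 (R 4.3.3; offset 16). The 14246 probes detected (p at most 0.02) on at least 1 array were fitted with 8 group means (20.3 degrees of freedom in all after shrinkage), and p-values were adjusted by Benjamini-Hochberg over all of them. Between 8047 and 10689 probes were detected per array. Replicate arrays of a group correlated at 0.949 to 0.989, and at most 0.973% of their intensities were equal. The number of arrays, 3 a group, limits the precision. A legend traces the arrays to 3 pairs of animals, but the labels do not tie letters to animals. State contrasts and interactions were called at an adjusted p below 0.05 and genotype contrasts by 4 criteria after the study's methods, with the Z-ratio and p taken from the normalized log2 values and limma in place of Z-scores. For a probe detected on no array of a group, the fold is a bound against the higher of the probe's own signal and the lowest detected signal of each array. Bounds were not tested, and an adjusted p given with one is that of the limma difference of the normalized values.

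Same-letter arrays deviated together (correlation above 0.1 for every letter) in 4 of 10 contrasts: Th2 stimulation and resting Th2 against Naïve in BAF180-deficient cells, and the genotype in both stimulated states. Deviations of WT and BAF180-deficient arrays of a letter, pooled over states, correlated at 0.301 (A), 0.136 (B) and 0.516 (C). The letter as a block changed no member's call in any contrast.

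Named were every member, up to 4 called genes per pathway list and direction with the largest WT stimulation differences, and the 3 genes most like each member; a gene that the rule would name is not reported here. Members and lists were chosen with earlier results of these data known. The fit was tested on simulated data. Alternatives were 2 other normalizations (Z-scores recomputed as the methods describe, and quantiles without background correction), no filter, other models, gene means and leaving out arrays. Promoter sequences are from RefSeq, GRCm38.p6. Plots were drawn in matplotlib 3.10.9.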

Additional observations from a re-analysis of the deposited data

Results flagged for a closer look

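The stimulation response differed between WT Th2 and WT Naïve cells, by the test of the difference, for 7 genes: Tnfaip3 (4.37 on the log2 scale), Nfkbia (4.17), Nfkbie (2.78), Nfkbib (2.63), Relb (2.28), Rela (1.51) and Nfkb2 (1.39). The treatments were not the same, 1.5 h of PMA and ionomycin against 24 h of anti-CD3 and anti-CD28. Cell type, stimulus, time and the makeup of the resting Naïve samples cannot be told apart. For Tnfaip3, Nfkbia and Nfkbie the responses were in opposite directions, each past the threshold in its own contrast. Scaled by Z-scores, Tnfaip3 did not pass in Th2 cells, nor Nfkbie in Naïve cells. The deposited intensities of Nfkbia and Nfkbie overlapped in the Naïve contrast. The other Nfkbie probe passed the test of the difference too (1.20, limma, adjusted p = 0.00117), without a fall in Naïve cells, and was not detected in resting Th2 cells. With 3 arrays a group, single arrays far from their group were not tested for.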

How the results depend on the processing

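The 47 member differences that passed kept their direction under every alternative, except that the other Nfkbie probe reversed the Naïve response, to 0.16 in WT and 0.43 in BAF180-deficient cells (the probes were not detected on the same arrays, and the cause was not tested). By the 4 criteria in place of an adjusted p below 0.05, 2 instead of 6 members were called in the WT Naïve response and 3 instead of 6 in the BAF180-deficient one, since the Z-ratio needs a larger change. Z-scores in place of quantiles lost 5 of the 47, Tnfaip3 in both Th2 responses (adjusted p = 0.108 in WT and 0.153 in BAF180-deficient cells), Nfkbie in the WT Naïve response and both Nfkb1 calls of BAF180-deficient cells outside the Th2 response. Testing without the detection filter lost the same Nfkb1 calls and all 3 of Rel. Leaving out 1 array gave counts of called members of 6 to 8 in both Th2 responses, 5 to 6 in the WT and 4 to 7 in the BAF180-deficient Naïve response, 5 to 6 and 5 to 7 for resting Th2 against resting Naïve in WT and BAF180-deficient cells, 7 to 9 for the difference of the WT responses, and 0 throughout for the genotype and its interactions. The replicate block kept the counts of members at 8, 8, 6, 6, 5, 7 and 7 in the state contrasts and 0 in the rest. A block of genotype and letter combined, run on the first 6 of these contrasts, gave the same counts there. The labels do not say that such a block marks a mouse. Of the 83 differences that did not pass, 51 changed sign and 9 passed under some alternative. Resting Naïve differences rest on samples with myeloid and B cell transcripts and on dimmer arrays, and Rel lies near the detection limit.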
